A study of Mus musculus with 6 samples.

Results

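The genes that give Sertoli cells their identity were followed as 10 named members, Sox9, Sox8, Amh, Ptgds, Cbln4, Aard, Hsd17b1, Tesc, Cldn11 and Mro, across 6 oligonucleotide arrays of fetal mouse testis. Members were chosen by name, and each probe set whose annotation gave 1 gene symbol equal to a member was taken. This gave 14 probe sets of the 45101 on the array, and 10 genes of the 18194 with a symbol of their own. The testes came from embryos at E13.5 outcrossed to 129S6/SvEvTac, with 3 control and 3 Dmrt1 null samples, each labelled as a biological replicate. The control samples are wild type (wt) by title but Dmrt1 (+/-) by description, genotype entry and design text. The null samples are Dmrt1 (-/-) by description, and their genotype entry reads Dmrt(flox/flox). The sources used here name no Cre driver and do not say whether a sample held 1 embryo or several. The p-values measure the spread between these samples. The design text states that the mutants have a high incidence of teratoma.

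Sertoli cells are the somatic cells that enclose the germ cells in the testis cords. In the XY gonad SRY switches on Sox9, and SOX9, helped by the related SOX8 and by FGF9 and prostaglandin D2 signals, keeps itself active and directs the genes of the Sertoli programme. Among these genes is Amh, whose product removes the Müllerian ducts. DMRT1, a DM domain transcription factor of Sertoli and germ cells, is known to hold Sertoli identity after birth.

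RefSeq promoter windows (build GRCm38.p6) were matched by symbol for 5 of the 10 members, Sox8, Ptgds, Cbln4, Tesc and Cldn11, and the 250 bases before each start were searched on both strands. The letters AACAAT were taken for the core bound by SOX factors, AAGGTCA for the element of NR5A1, AGATAA for the element of GATA4, and ACANTGT for the core of the DMRT1 element. The last of these can overlap a SOX core. One match was found in the 5 windows, an AACAAT on the opposite strand in Cbln4, at positions -242 to -237 counted back from -1 beside the start. AACAAT was held by 9.42% of 32851 promoter windows of this length, AAGGTCA by 4.08%, ACANTGT by 6.47% and AGATAA by 9.99%. A match is a description of letters and not a site of binding. The windows of Sox8 and Tesc are printed because these members had an unadjusted p under 0.05 in opposite directions, and that of Cbln4 because it holds the match, in capitals. They are written 5′ to 3′ on the strand of the gene.
Sox8 (chr17:25570687-25570936, minus strand): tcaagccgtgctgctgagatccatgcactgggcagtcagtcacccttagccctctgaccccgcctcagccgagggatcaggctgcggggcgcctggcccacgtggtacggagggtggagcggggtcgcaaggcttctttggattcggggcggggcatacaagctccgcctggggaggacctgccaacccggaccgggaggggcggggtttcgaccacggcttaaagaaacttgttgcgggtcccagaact
Tesc (chr5:118027493-118027742, plus strand): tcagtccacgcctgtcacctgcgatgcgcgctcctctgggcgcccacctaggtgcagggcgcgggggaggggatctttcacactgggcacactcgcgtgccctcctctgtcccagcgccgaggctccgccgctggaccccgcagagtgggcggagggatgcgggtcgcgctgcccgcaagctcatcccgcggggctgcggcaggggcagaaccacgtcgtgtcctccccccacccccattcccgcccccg
Cbln4 (chr2:172043467-172043716, minus strand): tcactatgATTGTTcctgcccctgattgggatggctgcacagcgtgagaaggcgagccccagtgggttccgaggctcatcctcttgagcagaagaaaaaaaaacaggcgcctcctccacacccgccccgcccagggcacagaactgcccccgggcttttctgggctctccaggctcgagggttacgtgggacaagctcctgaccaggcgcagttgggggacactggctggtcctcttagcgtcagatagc
G and C made up 65.6% of the Sox8 window, 73.2% of the Tesc window and 60.8% of the Cbln4 window.

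Each of the 10 members had a probe set with a mean log2 intensity of at least 4, the level required for the test, which 22082 probe sets reached. Foxl2, a transcription factor that defines granulosa cells of the ovary, did not reach it, at 7.61 to 10.1, whereas 10 of the 14 listed granulosa and ovarian genes did, among them Fst at 358 to 853 and Wnt4 at 331 to 473. Dmrt1 itself followed the labels, with intensities of 696 to 1030 in the controls and 23.8 to 48.4 in the nulls. Actb control probes at both ends of the transcript, whose ratio of 3′ over 5′ intensity tells of RNA integrity, gave 1.91 to 2.15 in 5 of the arrays and 2.75 in null replicate 3. The precision of each comparison is limited by the number of arrays.

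No Sertoli identity gene passed the test of null against control testes, and the members lay on both sides of 0. Of the 13 member probe sets tested, 6 were higher and 7 lower in the null, and 0 were called by limma at an adjusted p under 0.05, against 0.0272% of all tested probe sets. The smallest adjusted p of a member was 0.474, for Aard. At an unadjusted limma p under 0.05, Aard, Hsd17b1 and Sox8 were lower and both Tesc probe sets were higher, 5 of 13 in all. The background at that threshold was 6.04% of all tested probe sets, 3.28% lower and 2.75% higher. The groups did not overlap at 5 of the 13, 2 lower in the null and 3 higher, where the background was 12.8%, with 6.06% lower and 6.73% higher. With the brightest probe set for each gene, the median log2 difference of null minus control was -0.09 over the 10 members and 0.0077 over all tested probe sets. With single arrays left out the members' median ranged from -0.14 (null replicate 3 absent) to -0.0024 (control replicate 1 absent). It was -0.025 with array weights, and turned to 0.011 with a filter at a mean of 6, which removed Sox8, Hsd17b1 and Mro. In a whole testis, fewer Sertoli cells and less RNA per Sertoli cell cannot be told apart.

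**Figure D1:**
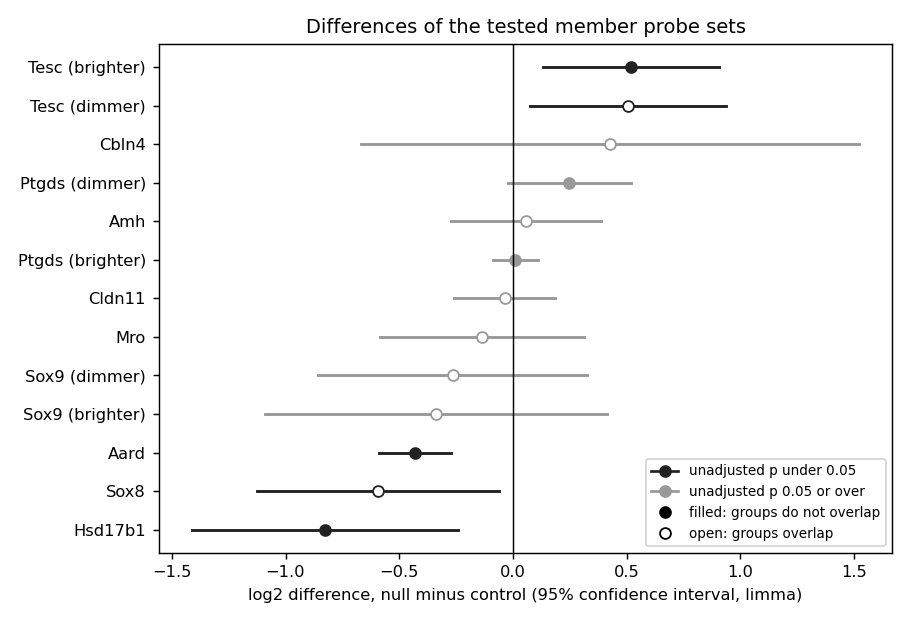
Log2 difference of null minus control for the 13 tested member probe sets, with 95% confidence intervals from limma (3 arrays per group); dark marks have an unadjusted p under 0.05 and filled marks have groups that do not overlap. Hsd17b1, Sox8 and Aard lie below 0 and both Tesc probe sets above it, and the widest interval is that of Cbln4.

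Sox9, the transcription factor that directs Sertoli fate, was measured by 3 probe sets. Throughout, sets of values are given for control replicates 1, 2 and 3 and then for null replicates 1, 2 and 3. The brightest Sox9 probe set gave 877, 419 and 485 in the controls and 298, 554 and 535 in the nulls. Control replicate 1 was the highest array and null replicate 1 the lowest, and the other 4 arrays lay between 419 and 554 with the genotypes interleaved. The log2 difference was -0.34 (standard error 0.32, 95% confidence interval -1.09 to 0.41, limma adjusted p = 0.841). Leaving out control replicate 1 brought it to -0.018, leaving out null replicate 1 to -0.048, and array weights to -0.11, so most of it rested on these arrays.

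The second tested Sox9 probe set is listed under the same transcript record as the first. Its intensities were 135, 87.8 and 113 in the controls and 64.4, 112 and 107 in the nulls. The same arrays were highest and lowest, and the log2 difference was -0.27 (standard error 0.26, 95% confidence interval -0.86 to 0.32, limma adjusted p = 0.841). With single arrays left out it moved to -0.010 without null replicate 1, -0.12 without control replicate 1, -0.43 without control replicate 2 and -0.41 without null replicate 2. The third probe set of Sox9 lay between 6.05 and 6.76 in the 6 arrays, below the level required for the test.

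Sox8, a SOX factor of the same subgroup that supports SOX9 in Sertoli cells, was dim. Its intensities were 42.1, 41.0 and 27.4 in the controls and 27.4, 26.3 and 19.1 in the nulls. The groups met at 27.4, the value of both control replicate 3 and null replicate 1. Sox8 was 1.51-fold lower in the null (95% confidence interval 1.04 to 2.18), which is -0.59 on the log2 scale (standard error 0.23, limma adjusted p = 0.773). The lowest Sox8 array, null replicate 3, was also the array with the raised Actb ratio of 2.75, and without it the Sox8 difference was -0.43. Adding 16 to each intensity, which damps differences between dim values, gave -0.39, and array weights gave -0.34.

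Amh, the anti-Müllerian hormone, hardly differed between the groups. Its intensities were 153, 140 and 148 in the controls and 166, 162 and 133 in the nulls, with the control arrays inside the range of the null arrays. Amh differed by 0.06 on the log2 scale (standard error 0.14, 95% confidence interval -0.27 to 0.39, limma adjusted p = 0.937), and it was -0.0011 without null replicate 1.

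Ptgds encodes the prostaglandin D synthase whose product feeds back on Sox9. Its brighter probe set gave 4690 to 4710 in the control arrays and 4730 to 4750 in the null arrays. Its within-group spread was the smallest of the 22082 probe sets tested, with 0 below it. The null level was 0.78% higher with groups that did not overlap, and limma, which moderates the spread across probe sets, gave an adjusted p of 0.964. Median centring of the arrays turned the sign, to -0.0026. The dimmer Ptgds probe set gave 983, 1020 and 848 in the controls and 1270, 1090 and 1030 in the nulls. Each null array lay above each control array, by 10 units at the nearest. The log2 difference there was 0.25 (standard error 0.12, 95% confidence interval -0.021 to 0.52, limma adjusted p = 0.773), and it was 0.16 without null replicate 1.

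Aard, an alanine and arginine rich protein of fetal Sertoli cells, had the smallest p of the members. Its intensities were 5740, 6050 and 5530 in the controls and 4580, 3920 and 4370 in the nulls. The groups did not overlap, and the spread within each was small against the gap between them. Aard was 1.35-fold lower in the null (95% confidence interval 1.21 to 1.50), with a log2 difference of -0.43, a standard error of 0.07 and a limma adjusted p of 0.474. Its unadjusted p of 0.000236 by limma was undercut by 0.0453% of the tested probe sets. With single arrays left out the difference lay between -0.48 and -0.37.

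Hsd17b1, a 17-beta-hydroxysteroid dehydrogenase that fetal Sertoli cells express, had the lowest difference of the members. Its intensities were 57.3, 75.0 and 44.8 in the controls and 35.7, 24.4 and 39.7 in the nulls, and each null array lay below each control array. The fold was 1.77 lower in the null (95% confidence interval 1.18 to 2.66), with a log2 difference of -0.83, a standard error of 0.25 and a limma adjusted p of 0.773. It lay between -1.01 and -0.62 with single arrays left out, and was -0.60 with 16 added to each intensity.

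Tesc, the calcium-binding protein tescalcin, had the highest difference of the members. At its brighter probe set the intensities were 644, 579 and 508 in the controls and 647, 910 and 944 in the nulls. Null replicates 2 and 3 stood well above the controls, whereas null replicate 1 exceeded control replicate 1 by 3 units. Tesc was 1.43-fold higher in the null at this probe set (95% confidence interval 1.09 to 1.87), which is 0.52 on the log2 scale (standard error 0.17, limma adjusted p = 0.773).

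The second Tesc probe set gave 229, 201 and 173 in the controls and 223, 321 and 318 in the nulls. Here null replicate 1 lay inside the control range, so the groups overlapped. The difference came to 0.51 on the log2 scale (standard error 0.19, limma adjusted p = 0.773). Names of both probe sets mark types that can bind several transcripts, of the same gene or of related genes. Leaving out single arrays moved the brighter one between 0.42 and 0.69.

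Cldn11, the claudin of Sertoli tight junctions, and Mro, a Sertoli gene named maestro, had differences of small size against their intervals. Cldn11 gave 1150, 1020 and 996 in the controls and 1090, 1020 and 975 in the nulls, with groups that overlapped. Its log2 difference was -0.036 (95% confidence interval -0.26 to 0.19, limma adjusted p = 0.943), and it was 0.0048 with array weights and 0.027 without control replicate 1. Mro gave 33.5, 27.4 and 27.2 in the controls and 22.2, 25.7 and 32.9 in the nulls. Its log2 difference was -0.14 (95% confidence interval -0.59 to 0.31, limma adjusted p = 0.895), and it was -0.0074 without null replicate 1 and -0.29 without null replicate 3.

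**Figure D2:**
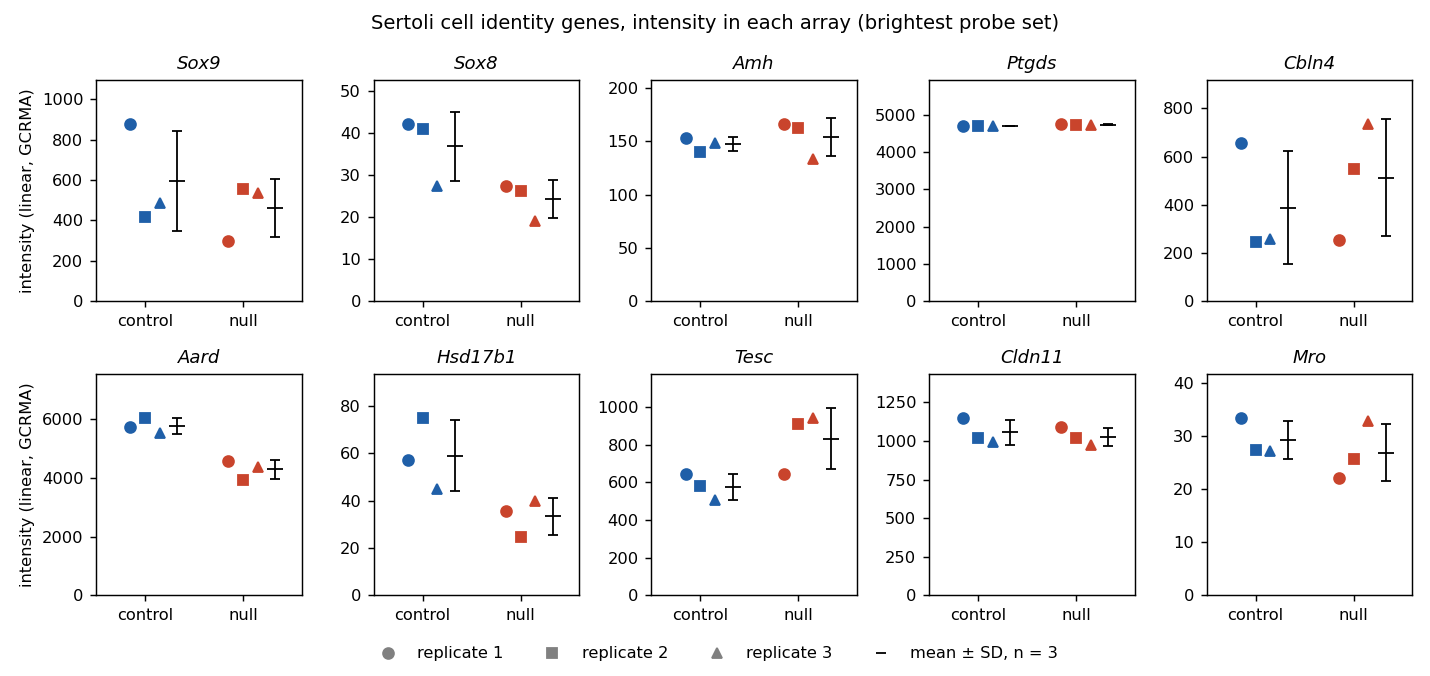
Linear GCRMA intensity of the brightest probe set of each member in each of the 6 arrays (blue, control; red, null; symbols, replicate numbers, not known to pair the groups), with mean ± SD of 3 arrays beside each group; the vertical axes start at 0 and differ between panels. Aard and Hsd17b1 are lower in each null array than in each control array, whereas Cbln4 is high in control replicate 1 and null replicates 2 and 3.

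Cbln4, a secreted protein of the cerebellin family, took 2 levels that crossed the genotypes. Its intensities were 658, 247 and 258 in the controls and 253, 549 and 735 in the nulls. In 3 arrays Cbln4 lay between 549 and 735 and in the other 3 between 247 and 258, with no array between. Null minus control came to 0.43 on the log2 scale for Cbln4 (standard error 0.47, 95% confidence interval -0.67 to 1.52, limma adjusted p = 0.867). It ranged from 0.10 without null replicate 3 to 0.89 without control replicate 1, and was 0.81 with array weights. The within-group spread of Cbln4 exceeded that of 98.7% of the tested probe sets.

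The markers of fetal Leydig cells, the steroid-producing cells between the cords, divided the arrays in the same way, with high and low exchanged. Of 9 listed Leydig genes 6 were measured, and each was tested. Their summed intensity was 5234, 11740 and 12597 in the controls and 16250, 5297 and 4179 in the nulls. The 3 arrays with high Cbln4 were the 3 with low Leydig signal, and Cyp11a1, the enzyme that starts steroid synthesis, lay at 215 to 364 in these and at 1890 to 2600 in the others. Erythroid genes divided the arrays as Cbln4 did. With 8 of 10 listed genes measured and 5 tested, their sums were 19218, 10868 and 14995 in the controls and 13420, 18117 and 18373 in the nulls. The part of the Leydig and erythroid signals in the Cbln4 values was not tested.

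The endothelial list, with 10 of 10 genes measured and tested, had sums of 3573, 1338 and 3299 in the controls and 1869, 3362 and 3639 in the nulls. The 2 arrays with low endothelial sums, control replicate 2 and null replicate 1, also had the 2 lowest intensities of the brightest Sox9 probe set, and their part in the Sox9 values was not tested. Of the genes measured for these 3 cell types, the erythroid Hba-a1, Epb42 and Hemgn lay below the level required for the test.

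**Figure D3:**
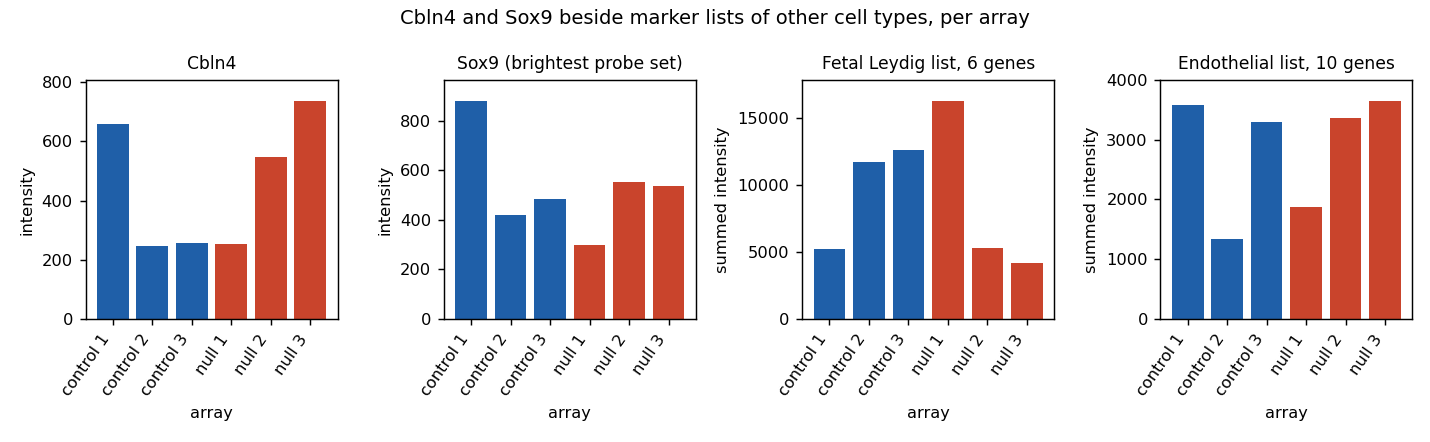
Intensity of Cbln4 and Sox9 (brightest probe set) and summed intensity of 6 fetal Leydig and 10 endothelial genes in each of the 6 arrays (blue, control; red, null; bars start at 0). Control replicate 1 and null replicates 2 and 3 have high Cbln4, at 549 to 735, and low Leydig sums, at 4179 to 5297.

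The members did not share 1 profile over the arrays. As log2 level minus the mean of the 6 arrays, control replicate 1 was the highest array for Sox9 at 0.81, for Sox8 at 0.52, for Cldn11 at 0.14 and for Mro at 0.27. Null replicate 1 was the lowest for Sox9 at -0.75 and for Mro at -0.33, yet the highest for Amh at 0.15 and for the dimmer Ptgds probe set at 0.30. Between the highest and the lowest array, Hsd17b1 spanned 1.62, Cbln4 1.57 and Sox9 1.56 on the log2 scale, while Amh spanned 0.32 and Cldn11 0.24.

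**Figure D4:**
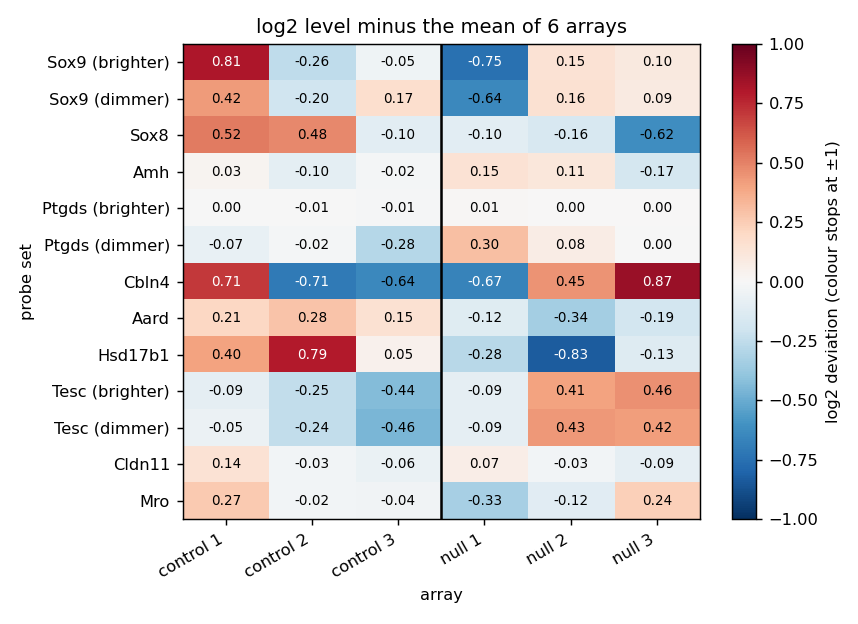
Log2 level minus the mean of the 6 arrays for the 13 tested member probe sets (rows) in each array (columns; controls left of the line, nulls right of it), with colours that stop at ±1. Aard and Hsd17b1 change sign at the line between the groups, whereas Sox9 is highest at 0.81 in control replicate 1 and lowest at -0.75 in null replicate 1.

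The summed intensity of the 10 members, brightest probe set each, was 12714 to 14065 in the controls and 11869 to 12514 in the nulls. Without Aard the sums overlapped, at 7184 to 8325 in the controls and 7289 to 8144 in the nulls.

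Genes outside the members were ranked by the root mean square difference between their mean-centred log2 profile and that of Sox9 or Sox8 over the 6 arrays. Nearest to Sox9 (brightest probe set) were Tacc1 at 0.095, Foxp1 at 0.10, Rbm39 at 0.10, Ddah1 at 0.13 and Cep295 at 0.13. Tacc1 and Cep295 were dim, with intensities of 10.7 to 25.9 and 14.5 to 35.8. Foxp1, a forkhead transcription factor, gave 1320, 650 and 848 in the controls and 544, 892 and 834 in the nulls. Its highest and lowest arrays were those of Sox9, a likeness that the ranking selected for. Nearest to Sox8 were Ddx46 at 0.069, Pibf1 at 0.096, Slc6a6 at 0.10, Mllt3 at 0.11 and Efr3a at 0.11. Ddx46, an RNA helicase of splicing, gave 305, 309 and 191 in the controls and 194, 212 and 141 in the nulls. It was lowest in null replicate 3 like Sox8, which the ranking also selected for.

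Other genes known from fetal Sertoli cells were read from the same fit. Of 40 listed, 32 had a probe set of their own and 27 were tested, 15 higher and 12 lower in the null, with a median of 0.08 beside 0.0077 for all tested probe sets. Limma called 2, both lower, Dmrt1 itself, the gene targeted in the nulls, and Cst9, a cystatin-related gene. Without Dmrt1 it called 1 of 26, against 0.0272% of all. Cst9 intensities were 3040, 3460 and 2940 in the controls and 1180, 860 and 1150 in the nulls (log2 difference -1.58, standard error 0.13, limma adjusted p = 0.0271). The count with Dmrt1 was 1 by eBayes without an intensity trend or without control replicate 1, control replicate 2 or null replicate 3. It was 0 without control replicate 3 and with replicate number as a block. Summed intensities of the 32 genes, Dmrt1 and Cst9 among them, were 42963 to 44461 in the controls and 37966 to 41849 in the nulls.

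At an unadjusted limma p under 0.05 and without Dmrt1, 3 of 26 other Sertoli genes were lower and 3 higher, beside 3.28% and 2.75% of all tested probe sets. Besides Cst9 the lower ones were Hsd17b3, the enzyme that makes testosterone from androstenedione in fetal Sertoli cells, and Defb19, a beta-defensin. Hsd17b3 gave 958, 1320 and 1010 in the controls and 744, 599 and 523 in the nulls (log2 difference -0.82, standard error 0.17, limma adjusted p = 0.773). Each null array lay below each control array, as for Hsd17b1. The higher ones were Mmd2 at 0.65, Nr0b1 at 0.55 and Nr5a1 at 0.54, each with a limma adjusted p of 0.773.

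Among 20 listed factors and receptors that act upstream of Sox9 or beside it, 16 were tested, 10 higher and 6 lower in the null, with a median of 0.09. Limma called 1, Dmrt1, the gene targeted in the nulls. That call was lost without control replicate 3 and with replicate number as a block. Of the other 15 limma called 0, against 0.0272% of all tested probe sets. At an unadjusted limma p under 0.05 there were 2 of the 15, against 6.04% of all. These were Nr5a1, the nuclear receptor SF1 that activates Amh and Sox9, and Nr0b1, the orphan receptor DAX1. Nr5a1 gave 778, 566 and 835 in the controls and 1090, 884 and 1170 in the nulls, with groups that did not overlap. Gata4 at 0.25, Wt1 at 0.12, Fgf9 at 0.10 and Amhr2, the receptor of AMH, at 0.34 had limma adjusted p of 0.773, 0.778, 0.948 and 0.773. Sry lay at 11.6 to 14.0 and the prostaglandin D2 receptors Ptgdr and Ptgdr2 at 3.86 to 5.41, all below the level required for the test.

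**Figure D5:**
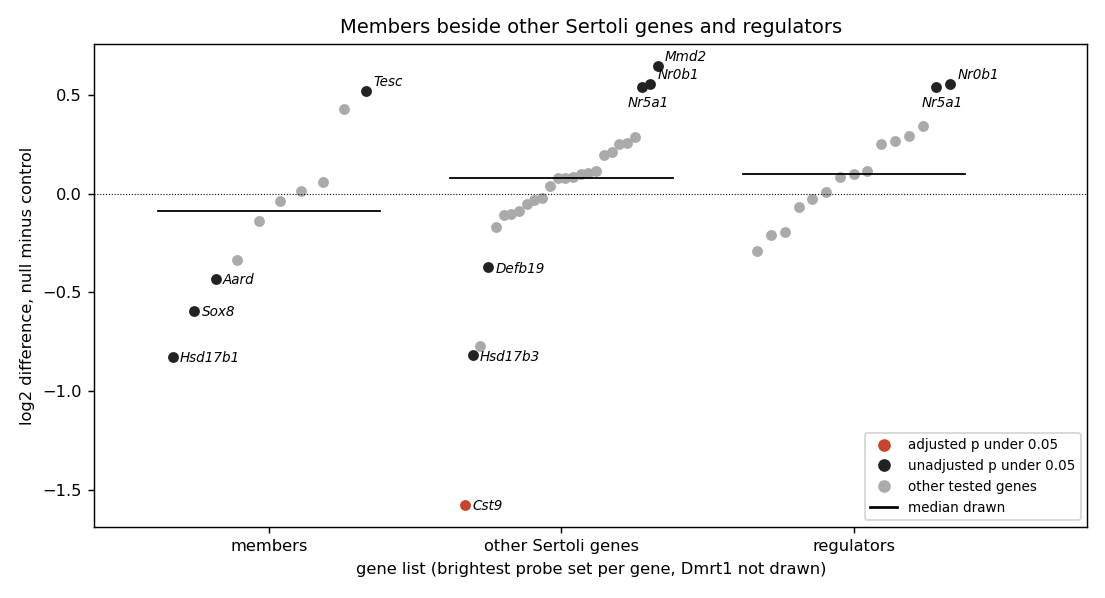
Log2 difference of null minus control (3 arrays per group) for the tested members, 26 other Sertoli genes and 15 regulators, brightest probe set each and Dmrt1 not drawn, with a line at each median; 5 genes stand in both of the last lists. Cst9 at -1.58 is the lowest and the one called, and Nr5a1 and Nr0b1 lie near 0.55.

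Genes of granulosa cells, the ovarian counterpart of Sertoli cells, and of the ovarian pathway were read from the same fit. Not all of them are particular to granulosa cells. Of 14 granulosa and ovarian genes 10 were tested, 4 higher and 6 lower, and limma called 0, against 0.0272% of all tested probe sets. At an unadjusted p under 0.05, against 6.04% of all, there was 1, Fst, the activin-binding protein follistatin, at -0.58. Foxl2, Irx5, Lgr5 and Sprr2d lay below the level required for the test. Summed intensities of the list were 11601 to 12002 in the controls and 11208 to 11355 in the nulls. Ctnnb1 made up most of each sum, at 7600 to 7770 in the controls and 7240 to 7640 in the nulls, which overlapped. Its log2 difference was -0.050 (limma adjusted p = 0.809). The list sums, mostly Ctnnb1, are not a measure of granulosa cells.

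Sums of macrophage markers were lower in the nulls, as were Aard, Hsd17b1 and the sums of the member, other Sertoli and granulosa lists. Of 9 listed genes 9 were measured and 8 tested, 1 higher and 7 lower, and limma called 0, against 0.0272% of all tested probe sets, with 2 lower at an unadjusted p under 0.05, against 3.28%. Their summed intensity was 1171 to 1764 in the controls and 983 to 1088 in the nulls. Mrc1 was the largest part of each sum, at 642 to 968 in the controls and 505 to 533 in the nulls. The groups did not overlap at 3 of the 8 tested, all lower, where the background was 6.06%. Tyrobp differed by -0.0089 and Lyz2 by 0.086 on the log2 scale, and Cd14 lay below the level required for the test. The part of macrophages in the values of Aard and Hsd17b1 was not tested. Germ cell sums, over 14 of 16 listed genes, were 15245 to 23212 in the controls, highest in control replicate 2, and 15387 to 18435 in the nulls. Limma called 0 of 13 germ cell, 6 Leydig, 10 endothelial, 5 erythroid, 9 interstitial and 8 mesonephric genes tested, with 2 germ cell genes and 1 mesonephric gene at an unadjusted p under 0.05, where the background was 6.04%. Their median log2 differences were -0.18, -0.41, 0.19, 0.46, -0.10 and -0.12 in that order. The gene from the mesonephric list was Ret, at 50.1, 107 and 75.8 in the controls and 12.1, 16.1 and 16.2 in the nulls. Its log2 difference was -2.34 (limma adjusted p = 0.0979). Ret stood apart from the rest of its list, which lay between -0.26 (Gata3) and 0.17 (Krt8). Which cells gave the Ret signal was not tested.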

How the data were processed

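Total RNA of 6 testis samples, amplified and labelled with biotin, was hybridised to 1 array each, per the labels' protocols. The authors deposited linear intensities made with GCRMA (background correction, normalization between arrays, summary per probe set), per the submitters' processing notes. The background correction bears on folds of dim probe sets. Annotation gave 34958 probe sets 1 symbol, 932 several and 9211 none. The 10 member symbols matched RefSeq by Entrez ID.

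Intensities were taken to log2. The 22082 probe sets with a mean of at least 4 were fitted with limma 3.58.1 in R 4.3.3, group as the only term, eBayes with trend, two-sided, with Benjamini-Hochberg adjustment over all of them and calls at 0.05. The fit was tested on simulated data. Lists used the brightest probe set per gene. Differences are null minus control.

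Members and lists were chosen with earlier results of these data known. Values were given in full for members with an unadjusted p under 0.05, Sox9 and Amh by rule, and for the other members too. Dmrt1 and Cst9 were named as called list genes, and the 5 nearest profiles by rule. The other list genes were named after their values were seen.

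Alternatives concerned the filter (none, or a mean of 6), scaling (quantiles, medians), 16 added to intensities, eBayes (robust, or no trend), array weights, a replicate block, each array left out in turn, a threshold of 0.1, and probe sets averaged per gene.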

Additional observations from a re-analysis of the deposited data

How the results depend on the processing

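No member probe set was called under any alternative run. At an unadjusted limma p under 0.05 there were 3 to 5 of them, against 5. The members' median lay between -0.14 and 0.011. The count of all called probe sets, 6, was 1 by eBayes without trend, 0 with the replicate block and 0 to 4 with single arrays left out. That of other Sertoli genes, 2 with Dmrt1 among them, was 1, 0 and 0 to 2 in these settings. That of regulators, 1, which was Dmrt1, was 0 with the block and 0 to 1 with arrays left out. The block fit gave 816 probe sets at an unadjusted limma p under 0.05. The labels name no pairing of the samples by replicate number. Deviations from the group means of equal numbers correlated at -0.59, -0.34 and 0.14 over probe sets, which cannot settle whether samples were paired. Across unequal numbers, control 2 with null 1 gave 0.58, control 1 with null 2 gave 0.46, and control 3 with null 2, whose descriptions begin with 1 number of unstated meaning, gave -0.16. Differences near 0 reversed: Cldn11 to 0.0048 with array weights and between -0.079 and 0.027 with arrays left out, Amh between -0.0011 and 0.16 with arrays left out, and the brighter Ptgds probe set to -0.0026 with median centring. The cause was not tested. Signal near background limits Sox8, Mro and Hsd17b1, which a filter at a mean of 6 removed.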

Other observations

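Rhox9, a homeobox gene of germ cells, took high and low values in the same arrays as Cbln4. It was singled out after its values were seen. Kit, also on the germ cell list, divided the arrays in the same way, at 327, 166 and 206 in the controls and 155, 317 and 267 in the nulls. Other listed germ cell genes differed, such as Mael and Tdrd5, which were highest in control replicate 2 at 1930 and 435. Rhox9 intensities were 106, 25.9 and 33.5 in the controls and 34.9, 142 and 165 in the nulls. Null minus control came to 1.05 on the log2 scale (standard error 0.69, limma adjusted p = 0.789). Star, which carries cholesterol into mitochondria of steroid-producing cells, gave 609, 1870 and 1750 in the controls and 3020, 625 and 433 in the nulls, high in the 3 arrays where Rhox9 was low. The relation was not tested.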
